A study of Mus musculus with 7 samples.

Results

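PPARalpha, the nuclear receptor encoded by Ppara, and 7 genes of fatty acid oxidation or its control were described in prostates of Nkx3.1-/- mice that had received vehicle or N-acetylcysteine (NAC). The genes were chosen by name, for their place in this pathway, with earlier results of these data known. Each was read from the probe set with the highest mean among those naming it. All 8 genes, Ppara, Cpt1a, Cpt2, Acadm, Acadl, Hadha, Ehhadh and Angptl4, were measured, out of 18938 genes in all, and each had 1 probe set. Every mouse was homozygous null for the prostate homeobox gene Nkx3.1, of recombinant inbred B6/129 background and 16 weeks old. The vehicle group (n = 3, replicates 1, 2 and 4) drank plain water, and the NAC group (n = 4, replicates 1 to 4) drank water with 5 mM NAC, an antioxidant that supplies cysteine, for 13 weeks from weaning. Total RNA of 1 mouse was hybridized to each Affymetrix Mouse Gene 1.0 ST array. The null allele is carried in all tissues and by both groups, no Nkx3.1+/+ arrays were part of the comparison, and the Nkx3.1 transcript was not analysed here. The extraction protocol names the anterior prostate and a tissue label the whole prostate. Mice of the study also received BrdU, a label of DNA synthesis, before they were killed, and whether all array mice did is not given in the sources used here. Littermates were divided between cages by treatment, so cage and treatment cannot be told apart.

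Fatty acids enter mitochondria as acylcarnitines, which are made and taken apart by the carnitine palmitoyltransferases, and are then shortened in a cycle of dehydrogenation, hydration, a further dehydrogenation and thiolysis. Peroxisomes shorten very long and some other chains by a parallel route. PPARalpha binds fatty acids, pairs with a retinoid X receptor at direct repeats in DNA, and is best known for switching on this machinery in the fasting liver, heart and kidney. ANGPTL4, a secreted target of the PPAR family, inhibits lipoprotein lipase.

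Values are the deposited log2 intensities, on which a difference of 1 is a doubling. Prostate epithelium was present on every array, with the secretory gene Msmb between 11.33 and 12.11 and E-cadherin, Cdh1, between 11.29 and 11.60. Over the 8 measured of 9 epithelial markers, the mean deviation from the 7-array mean lay between -0.077 and 0.088. NAC replicate 3 stood apart: the 7 lung markers averaged 1.97 above the 7-array mean there and between -0.38 and -0.27 on the other arrays, with the surfactant gene Sftpc at 10.51 there and between 5.13 and 5.26 elsewhere, and the club cell gene Scgb1a1 at 9.29 and between 3.60 and 4.03. All 8 genes are therefore given with and without that array. For 7568 of the 18938 genes, 3 or more arrays held an identical value. In bulk tissue, fewer cells of a type and less RNA per cell cannot be told apart.

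Ppara differed between the groups by far less than the spread of the arrays. It was at 7.09, 6.94 and 7.19 on vehicle replicates 1, 2 and 4 and at 7.22, 6.93, 7.11 and 7.06 on NAC replicates 1 to 4. The groups overlapped over nearly their whole range, with the highest and the lowest value both on NAC arrays. Vehicle arrays averaged 7.07 ± 0.13 (SD, n = 3) and NAC arrays 7.08 ± 0.12 (SD, n = 4), a difference of 0.0051 (standard error 0.086, 95% interval -0.20 to 0.21; limma adjusted p = 0.994). Without NAC replicate 3 the difference was -0.0047 (95% interval -0.25 to 0.24). NAC levels between 0.872 and 1.16 of the vehicle level lie within the interval over all 7 arrays. By the root mean square difference of deviations from the 7-array mean, over 11369 genes without a value shared by 3 arrays, the genes nearest in pattern to Ppara were Plch2, a phospholipase C (0.016), Rrp36, a factor of ribosomal RNA processing (0.031), and Creb3l4, a membrane-bound transcription factor (0.035).

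**Figure D1:**
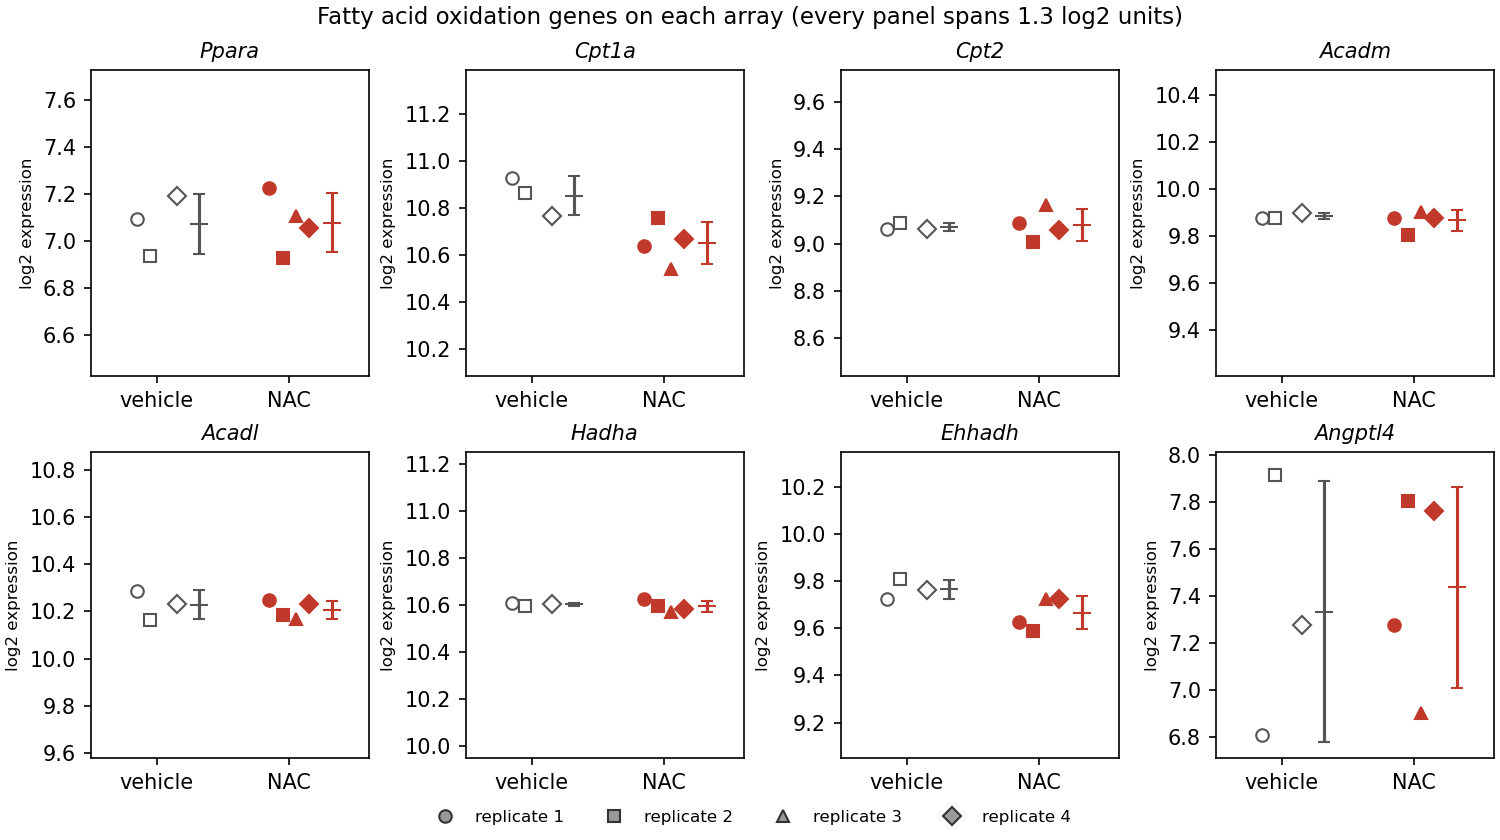
Log2 expression (y axis) of the 8 genes by group (x axis), 1 panel per gene, with vehicle arrays as open grey symbols (n = 3), NAC arrays as filled red symbols (n = 4), the symbol shape giving the replicate number and the bars mean and SD; all panels span the same number of log2 units around their own centre. Angptl4 is spread over 1.10 log2 units and Hadha over 0.055, and Cpt1a is the gene whose NAC arrays all lie below its vehicle arrays.

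Cpt1a, which makes acylcarnitines at the outer mitochondrial membrane and is the rate-limiting step of entry, was lower on every NAC array than on every vehicle array. It was at 10.93, 10.86 and 10.76 on vehicle replicates 1, 2 and 4 and at 10.64, 10.76, 10.54 and 10.67 on NAC replicates 1 to 4. The groups were barely apart, since vehicle replicate 4 was only 0.0090 above NAC replicate 2. Vehicle arrays averaged 10.85 ± 0.082 (SD, n = 3) and NAC arrays 10.65 ± 0.088 (SD, n = 4). The difference of -0.20 (standard error 0.061, 95% interval -0.35 to -0.055) corresponds to 0.870 of the vehicle level (95% interval 0.786 to 0.962). It did not pass the test over all genes (limma adjusted p = 0.827, unadjusted 0.0141). NAC replicate 3 held the lowest value, and without it the difference was -0.16 (95% interval -0.30 to -0.025; limma adjusted p = 0.854). Without vehicle replicate 1 the unadjusted limma p was 0.0549.

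Cpt2, the inner membrane partner that hands the acyl group back to coenzyme A, did not show the pattern of Cpt1a. It was at 9.06, 9.09 and 9.06 on vehicle replicates 1, 2 and 4 and at 9.09, 9.01, 9.17 and 9.06 on NAC replicates 1 to 4. The vehicle arrays lay inside the range of the NAC arrays. The difference was 0.0087 (standard error 0.042, 95% interval -0.092 to 0.11; limma adjusted p = 0.974), and -0.020 (95% interval -0.10 to 0.062) without NAC replicate 3. Whether Cpt1a and Cpt2 differ in their response was not tested.

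To show the DNA next to which such receptors could act, promoters from RefSeq (GRCm38.p6), from 250 bases before to 50 bases from the start of transcription on, were searched on both strands. The core site of such receptors is AGGTCA, the PPAR response element is the direct repeat AGGTCANAGGTCA, and a looser form is AGGNCANAGGNCA; each repeat contains or resembles the core site. Of the 8 genes, 7 had a promoter in the table. Angptl4 had none. The core site was found in 2 of the 7 (Cpt1a and Acadm), where 16.3% of all 32851 promoters hold it, and neither repeat was found in any of the 7, where 0.0396% and 0.381% of all promoters hold them. The 250 bases before the start site of Cpt1a (chr19:3323051-3323300, plus strand) and Acadm (chr3:153944644-153944893, minus strand), the 2 with a match, and of Ehhadh (chr16:21787835-21788084, minus strand), which lay lower on average with NAC as Cpt1a did, read 5′ to 3′, with the core site in capitals:
Cpt1a: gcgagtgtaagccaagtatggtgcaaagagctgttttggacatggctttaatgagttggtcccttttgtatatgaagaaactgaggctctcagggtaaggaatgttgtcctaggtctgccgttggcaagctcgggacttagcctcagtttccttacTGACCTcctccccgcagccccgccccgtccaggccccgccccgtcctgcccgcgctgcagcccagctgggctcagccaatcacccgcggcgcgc
Acadm: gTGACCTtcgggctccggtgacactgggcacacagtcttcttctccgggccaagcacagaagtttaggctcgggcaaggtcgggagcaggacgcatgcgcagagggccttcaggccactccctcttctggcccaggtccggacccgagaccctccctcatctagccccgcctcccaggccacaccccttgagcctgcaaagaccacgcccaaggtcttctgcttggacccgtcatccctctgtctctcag
Ehhadh: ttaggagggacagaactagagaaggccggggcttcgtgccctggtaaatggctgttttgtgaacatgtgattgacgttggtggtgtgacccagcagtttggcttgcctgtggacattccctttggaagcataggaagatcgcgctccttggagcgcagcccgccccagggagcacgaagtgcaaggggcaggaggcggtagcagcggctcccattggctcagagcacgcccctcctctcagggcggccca
In both promoters the core site lies on the strand opposite the gene and so reads TGACCT here. Its first base is at -94 from the start site in Cpt1a and at -249 in Acadm. Elements that lie farther away or within introns are outside these windows. The annotated gene Cpt1a begins at chr19:3322326, before its window, so the start site used for it lies inside the annotated gene.

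The 3 mitochondrial enzymes of the oxidation cycle were the steadiest of the genes. Acadm, the medium-chain acyl-CoA dehydrogenase, was at 9.88, 9.88 and 9.90 on vehicle replicates 1, 2 and 4 and at 9.88, 9.80, 9.90 and 9.88 on NAC replicates 1 to 4. The same value stood on 4 of the 7 arrays, and the groups overlapped. Its difference was -0.019 (standard error 0.034, 95% interval -0.099 to 0.061), and -0.032 (95% interval -0.12 to 0.051) without NAC replicate 3.

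Acadl, the long-chain acyl-CoA dehydrogenase, was at 10.29, 10.16 and 10.23 on vehicle replicates 1, 2 and 4 and at 10.25, 10.19, 10.17 and 10.23 on NAC replicates 1 to 4. All 4 NAC arrays lay within the vehicle range. Its difference was -0.020 (standard error 0.041, 95% interval -0.12 to 0.077), and -0.0060 (95% interval -0.11 to 0.099) without NAC replicate 3.

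Hadha, the alpha subunit of the trifunctional protein that carries out the later steps on long chains, was at 10.61, 10.60 and 10.61 on vehicle replicates 1, 2 and 4 and at 10.63, 10.60, 10.57 and 10.59 on NAC replicates 1 to 4. Its whole range over the 7 arrays was 0.055, and 96.8% of all genes had a larger pooled SD than its 0.019. The difference was -0.0084 (standard error 0.028, 95% interval -0.075 to 0.058; limma adjusted p = 0.956). The interval leaves room for NAC levels between 0.950 and 1.04 of the vehicle level. Without NAC replicate 3 the difference was -0.00066 (95% interval -0.069 to 0.068). Acadm and Acadl did not pass either (limma adjusted p = 0.905 and 0.919).

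Ehhadh, the bifunctional enzyme of peroxisomal oxidation, was lower on average with NAC, with overlapping groups. It was at 9.72, 9.81 and 9.76 on vehicle replicates 1, 2 and 4 and at 9.63, 9.59, 9.72 and 9.72 on NAC replicates 1 to 4. The lowest vehicle array and the 2 highest NAC arrays, replicates 3 and 4, held an identical value. Vehicle arrays averaged 9.77 ± 0.042 (SD, n = 3) and NAC arrays 9.67 ± 0.069 (SD, n = 4), a difference of -0.099 (standard error 0.046, 95% interval -0.21 to 0.011; limma adjusted p = 0.827, unadjusted 0.0708), or 0.933 of the vehicle level. Without NAC replicate 3 it was -0.12 (95% interval -0.24 to -0.0013; limma adjusted p = 0.854, unadjusted 0.0483).

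**Figure D2:**
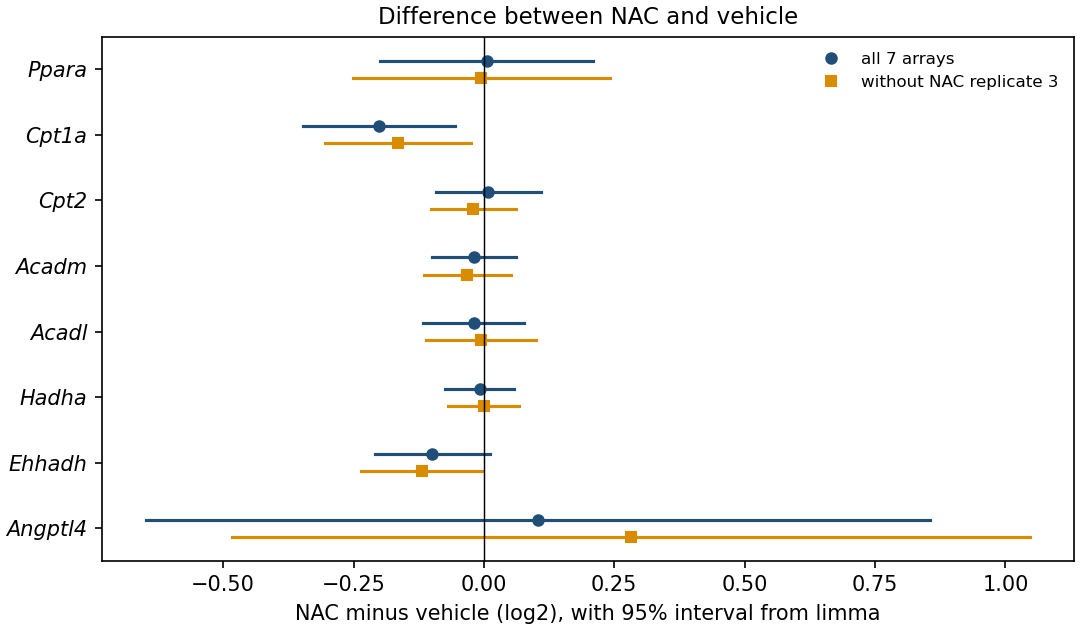
Difference between NAC and vehicle (x axis, log2) for each of the 8 genes (y axis), with 95% intervals from limma, for all 7 arrays (blue circles) and without NAC replicate 3 (orange squares). The interval of Cpt1a lies below 0 in both, from -0.35 to -0.055 and from -0.30 to -0.025, that of Angptl4 is the widest, and no gene passed after adjustment over all genes.

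Angptl4 varied more between mice than nearly any other gene, in both groups. It was at 6.81, 7.91 and 7.27 on vehicle replicates 1, 2 and 4 and at 7.27, 7.80, 6.90 and 7.76 on NAC replicates 1 to 4. Vehicle replicate 2 and NAC replicates 2 and 4 were high, vehicle replicate 1 and NAC replicate 3 were low, and vehicle replicate 4 and NAC replicate 1 held the same value between them. The pooled SD within groups was 0.48, which 112 genes (0.591% of all) exceeded, while the median over all genes was 0.084. Vehicle arrays averaged 7.33 ± 0.55 (SD, n = 3) and NAC arrays 7.44 ± 0.43 (SD, n = 4), a difference of 0.10 (standard error 0.32, 95% interval -0.65 to 0.86; limma adjusted p = 0.951). Without NAC replicate 3 the difference was 0.28 (95% interval -0.48 to 1.05), without vehicle replicate 2 it was 0.39, and it turned below 0 without vehicle replicate 1 (-0.16). It was also below 0 with NAC replicate 2 left out (-0.019) and with NAC replicate 4 left out (-0.0040). NAC levels from 0.638 to 1.81 of the vehicle level lie within the interval over all 7 arrays.

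The genes nearest to Angptl4 in pattern over the 7 arrays, by the same measure, were Plek, a protein of leukocytes and platelets (0.13), Clca3a2, a chloride channel accessory protein (0.15), and Sphk1, a sphingosine kinase (0.16). Plek was at 6.96, 7.75 and 7.09 on vehicle replicates 1, 2 and 4 and at 7.31, 7.82, 6.95 and 7.56 on NAC replicates 1 to 4. These genes were picked for that likeness, so the arrays they share with Angptl4 are no further finding. The monocyte chemokine Ccl2, a gene named after its values were seen, was at 7.88 on vehicle replicate 2, 8.33 on NAC replicate 2 and 7.90 on NAC replicate 4 and between 6.33 and 6.68 on the other arrays. Pdk4, the kinase that shuts pyruvate out of oxidation and another PPAR target, was highest on vehicle replicate 2 (7.87) and NAC replicate 2 (7.70) and at 7.50 on NAC replicate 4, as on vehicle replicate 4 and NAC replicate 3. Ppara itself was lowest on NAC replicate 2 and vehicle replicate 2.

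**Figure D3:**
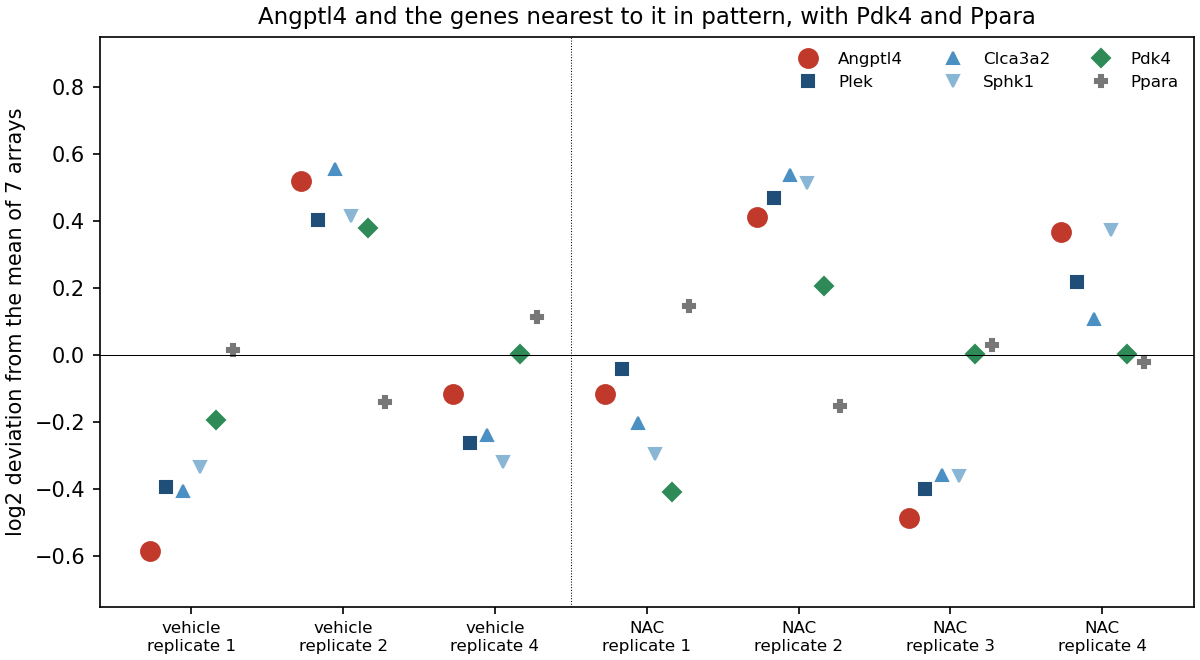
Deviation from the 7-array mean in log2 units (y axis) on each array (x axis; n = 3 vehicle and 4 NAC) for Angptl4, the 3 genes nearest to it in pattern, Pdk4 and Ppara, 1 point per gene and array. Angptl4 is 0.52, 0.41 and 0.37 above its mean on vehicle replicate 2 and NAC replicates 2 and 4, and Ppara deviates there by -0.14, -0.15 and -0.020.

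With limma, 0 of the 8 genes had an adjusted p under 0.05, as did 0% of all genes, and 0 of 8 (0% of all genes) without NAC replicate 3. At an unadjusted limma p under 0.05 there was 1 of the 8, Cpt1a, where 4.41% of all genes were, and 2 of the 8, Cpt1a and Ehhadh, without NAC replicate 3, where 3.36% were. The groups did not overlap for 1 of the 8, Cpt1a, against 3.47% of all genes, and for the same gene without NAC replicate 3, against 5.33%. Of the 8 genes, 3 were higher and 5 lower with NAC, where 49.8% of all genes were higher. Their median difference was -0.014, beside -0.00029 over all genes. Without NAC replicate 3, 1 was higher and 7 lower, where 49.4% of all genes were higher. The medians were then -0.013 for the 8 genes and -0.00013 over all genes. Of the lower genes, Hadha (-0.00066), Ppara (-0.0047) and Acadl (-0.0060) lay well within their standard errors. The mean deviation over the 8 genes lay between -0.036 and 0.071 on vehicle arrays and between -0.074 and 0.036 on NAC arrays, so the groups overlapped. Without Angptl4, the mean over the other 7 lay between 0.0072 and 0.042 on vehicle arrays and between -0.061 and 0.0060 on NAC arrays. These ranges were barely apart, and this separation was not tested. The 7 include Cpt1a, whose groups did not overlap. The mean of Cpt1a and Cpt2 lay between 0.0064 and 0.088 on vehicle and between -0.053 and -0.025 on NAC arrays. For the 3 mitochondrial enzymes the groups overlapped, between -0.017 and 0.029 on vehicle and between -0.035 and 0.022 on NAC arrays. A pooled SD above the median of all genes was seen in 3 of the 8, Ppara, Cpt1a and Angptl4.

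The rest of the machinery is given from lists written from textbook knowledge. Of 5 other carnitine shuttle genes 4 were measured, 1 higher and 3 lower with NAC, with a median of -0.049 (the same counts and -0.057 without NAC replicate 3). Slc22a5, the plasma membrane carnitine transporter, had the smallest p of them and a difference of -0.13 (standard error 0.059). The difference was -0.066 (standard error 0.043) for Slc25a20, which carries acylcarnitines across the inner membrane, and -0.033 for the acetyl transferase Crat. All 14 other genes of mitochondrial oxidation were measured, 6 higher and 8 lower, with a median of -0.0095 and differences from -0.13 to 0.025. The counts were the same and the median was -0.0042 without NAC replicate 3. The lowest was Hadh, the short-chain hydroxyacyl-CoA dehydrogenase. It was at 11.02, 10.82 and 10.82 on vehicle replicates 1, 2 and 4 and at 10.76, 10.58, 10.91 and 10.77 on NAC replicates 1 to 4, so that the groups overlapped through NAC replicate 3 alone. Its difference was -0.13 (standard error 0.086), and -0.18 (standard error 0.080) without that array. Acadsb, a dehydrogenase of short branched chains, and Etfa, which takes up electrons from the dehydrogenases, had -0.090 (standard error 0.046) and -0.065 (standard error 0.048).

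Of 15 other peroxisomal genes 11 were measured, 6 higher and 5 lower with NAC, and their median was 0.0066. Leaving out NAC replicate 3 gave 8 higher and 3 lower (median 0.013). Differences ran from -0.14 to 0.45 over all 7 arrays. Without NAC replicate 3, the groups did not overlap for 1 of the 11, a gene lower with NAC, against 5.33% of all genes. Acox2, the oxidase of branched chains and bile acid precursors, had 0.14 (standard error 0.062) and Amacr, the racemase of branched chains, -0.075 (standard error 0.042). Abcd2, a peroxisomal importer of very long chains that is abundant in fat, had the highest difference, 0.45 (standard error 0.31), with 6.85 on NAC replicate 3 and between 5.36 and 6.06 on all other arrays, and 0.18 without that array. Over the 3 lists of oxidation genes together, 13 of 29 had a higher NAC mean and 16 a lower one (median -0.011; 15 and 14, median 0.0024, without NAC replicate 3), and over all 7 arrays with limma 0 had an adjusted and 0 an unadjusted p under 0.05.

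Of 14 other classical PPARalpha targets 12 were measured, 6 higher and 6 lower, and their median was -0.0048, against 5 and 7 (median -0.032) once NAC replicate 3 was left out. Over all 7 arrays the differences of these targets ran from -0.19 to 0.10. The difference was -0.11 (standard error 0.18) for Pdk4 and 0.013 (standard error 0.074) for the lipid droplet protein Plin2. Smallest in p were Fabp1, a liver fatty acid binding protein, with 0.10 (standard error 0.047), the transcription factor Creb3l3, with 0.10 (standard error 0.060), and the fatty acid hydroxylase Cyp4a14, with 0.10 (standard error 0.074). Fabp1 lay between 3.51 and 3.72 on all arrays, as low as Scgb1a1 outside NAC replicate 3. Creb3l3 held an identical value on 4 of the 7 arrays. Cyp4a14 held an identical value on 5 of the 7 arrays, and only vehicle replicate 4 was lower, at 4.71. Of the partners and coregulators of PPARalpha, 8 of 10 were measured, 5 higher and 3 lower, with a median of 0.011, against 4 and 4 (median -0.0034) without NAC replicate 3. Ppargc1b, a coactivator of oxidative genes, had -0.19 (standard error 0.091), the receptor Ppard 0.073 (standard error 0.057) and the retinoid X receptor Rxrb -0.046 (standard error 0.045). With limma, 0 of these targets and partners had an adjusted p under 0.05, and 0 an unadjusted one. Without NAC replicate 3, Fabp1 had an unadjusted limma p of 0.0418 and Plin2 was lower on all NAC than on all vehicle arrays, by -0.052 on average. Of all genes, 3.36% had an unadjusted limma p under 0.05 there, and 5.33% had groups that did not overlap.

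Of 13 genes of fatty acid uptake and activation 11 were measured, 9 higher and 2 lower with NAC, and their median was 0.024. The counts became 7 and 4 (median 0.019) without NAC replicate 3. Cd36, the fatty acid transporter of fat, muscle, capillaries and macrophages, was at 6.24, 6.67 and 6.41 on vehicle replicates 1, 2 and 4 and at 6.95, 6.92, 7.94 and 6.72 on NAC replicates 1 to 4. All NAC arrays lay above all vehicle arrays. The groups did not overlap for 3.47% of all genes, and for 5.33% without NAC replicate 3. The nearest arrays of the groups were NAC replicate 4 (6.72) and vehicle replicate 2 (6.67), and NAC replicate 3 lay far above the rest. The difference was 0.70 (standard error 0.29; limma adjusted p = 0.827), and 0.43 without that array (limma adjusted p = 0.854). Lpl, the lipase that ANGPTL4 inhibits, was at 7.91 on NAC replicate 3 and between 6.73 and 7.02 on the others, with a difference of 0.35 (standard error 0.27) that was 0.087 without that array. Fabp3, a fatty acid binding protein of muscle, had 0.080 (standard error 0.095). Among 10 fatty acid synthesis genes the NAC mean was higher for 7 and lower for 3 (median 0.016). With NAC replicate 3 left out it was higher for 5 and lower for 5, and the median was -0.0030. Mlycd, which degrades the malonyl-CoA that inhibits CPT1, had -0.070 (standard error 0.040), the fatty acid synthase gene Fasn 0.13 (standard error 0.092) and the desaturase gene Scd1 0.12 (standard error 0.11). Fasn had 0.076 and Scd1 0.026 without NAC replicate 3.

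Angptl4 is also known to respond to hypoxia and to glucocorticoids. Of 9 hypoxia-induced genes 3 were higher and 6 lower with NAC, with a median of -0.050 (the same counts and -0.015 without NAC replicate 3), Adm at -0.21 (standard error 0.13), Vegfa at -0.10 (standard error 0.061) and Bnip3 at -0.050 (standard error 0.050). The mean deviation of this list lay between 0.017 and 0.039 on vehicle and between -0.066 and 0.0052 on NAC arrays. That separation was not tested. Among 5 measured of 6 glucocorticoid-induced genes the NAC mean was higher for 3 and lower for 2 (median 0.049; the same counts and 0.049 without NAC replicate 3). This list was lowest on NAC replicate 1 and vehicle replicate 4, at -0.24 and -0.17, and between 0.023 and 0.12 on the other arrays. Its genes Fkbp5, Zbtb16 and Sgk1 had 0.11 (standard error 0.18), 0.060 (standard error 0.066) and 0.049 (standard error 0.12). In both lists, 0 genes had an adjusted and 0 an unadjusted p under 0.05 in limma. Over all 84 measured pathway genes of these lists, 46 had a higher and 38 a lower NAC mean (median 0.0026; 42 and 42 without NAC replicate 3), and over all 7 arrays with limma 0 had an adjusted and 1, Cd36, an unadjusted p under 0.05. Of all genes, 4.41% had such an unadjusted p.

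**Figure D4:**
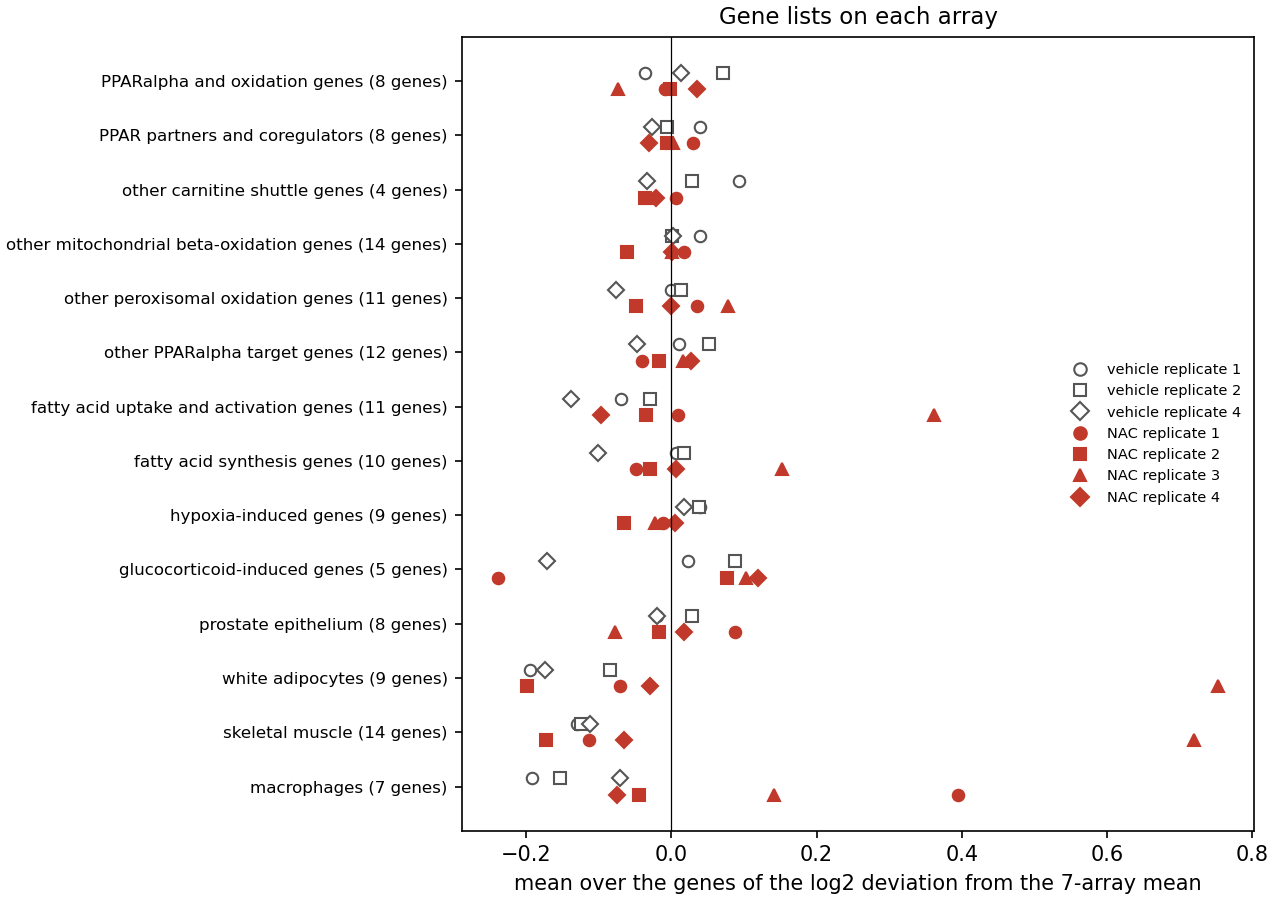
Mean over each list's measured genes of the log2 deviation from the 7-array mean (x axis) for gene lists (y axis, with the number of genes), 1 symbol per array, vehicle open and grey (n = 3) and NAC filled and red (n = 4), shapes giving the replicate number. NAC replicate 3 is at 0.36 for uptake and activation genes, 0.75 for white adipocyte markers and 0.72 for skeletal muscle markers, while the lists of other carnitine shuttle, mitochondrial and peroxisomal genes stay between -0.076 and 0.092 on all arrays.

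Cells rich in these genes were followed by markers. Of 10 white adipocyte markers 9 were measured, and their mean deviation lay between -0.20 and -0.084 on vehicle arrays, between -0.20 and -0.030 on NAC replicates 1, 2 and 4 and at 0.75 on NAC replicate 3, with Retn 2.62 and Adipoq 1.52 above the mean of the other arrays. Pparg, the PPAR of adipocytes, was at 6.49 on NAC replicate 3 and between 6.07 and 6.11 elsewhere. The 14 skeletal muscle markers, all measured, lay between -0.17 and -0.065 and at 0.72 on NAC replicate 3, with Myl1 2.25 and Atp2a1 1.73 above the others. The 4 brown adipocyte markers lay between -0.056 and -0.020 on vehicle and between -0.015 and 0.077 on NAC arrays. Macrophage markers (7 of 7 measured) lay between -0.19 and -0.071 with vehicle and between -0.075 and 0.39 with NAC, highest on NAC replicate 1, and all 7 had a higher NAC mean. Endothelial markers (5 of 5) lay between -0.075 and -0.0025 with vehicle and between -0.092 and 0.29 with NAC, smooth muscle (8 of 8) between -0.026 and 0.092 and between -0.085 and 0.021, and liver (5 of 5) between -0.042 and 0.035 and between -0.047 and 0.066. Seminal vesicle genes (7 of 7), secreted by the gland next to the anterior prostate, ranged from 0.12 to 0.50 with vehicle and from -1.27 on NAC replicate 1 to 0.76 on NAC replicate 4, and all 7 had a lower NAC mean (5 of 7 without NAC replicate 3). Of these 7 genes, 3 had an unadjusted limma p under 0.05 (4.41% of all genes) and 3 had groups that did not overlap (3.47% of all genes). Without NAC replicate 3 it was 1 (3.36% of all genes) and 3 (5.33% of all genes). No marker was listed at 0. The part of these cells in the values of Cpt1a, Ehhadh, Angptl4 and Cd36 was not tested.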

How the data were processed

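Gene expression was measured on 7 arrays, 1 mouse each, with groups and replicate numbers taken from the labels. The authors deposited log2 values: per the study's methods, probe intensities were quantile normalized, background corrected by RMA and summarized by median polish over perfect-match probes. The tools listed by the submitters are affy, RMA and limma. The genome build is not given in the sources used here. RNA of 4 vehicle mice was taken, and 1 vehicle array failed the authors' quality control.

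Of 20696 probe sets, 18950 named 1 gene, 678 several and 1068 none in the platform annotation; only the first were used, updated through Entrez identifiers (18910 genes matched), and a gene kept the probe set with the highest mean. No column lacked a sample. In all, 14 genes of the lists had no such probe set and were not analysed here.

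Groups were compared over all 18938 genes in R 4.3.3 by the moderated linear model of limma 3.58.1 (no covariates; two-sided p, adjusted by Benjamini-Hochberg and called under 0.05). Lists were described by counts and medians. The 8 genes and the lists were chosen with earlier results of these data known. Genes named are all 8, up to 3 genes per pathway list with the smallest unadjusted p with Cd36, Pparg, Pdk4 and Plin2, up to 2 per marker list with the largest difference on NAC replicate 3, and the 3 nearest in pattern to Ppara and to Angptl4; those of markers are named where they bear on a result. Array values have no read depth, and the number of mice limits precision. The p-values set the group difference against the spread between mice within groups, which limma draws toward that of all genes. The fit was tested on simulated data with 200 changed genes. Those changes were larger than any difference of the 8 genes, and no simulated array was made to stand apart as NAC replicate 3 did. The simulation therefore does not show how the fit performs at differences as small as those of the 8 genes. Alternatives were a variance trend with robust fit, array weights, array medians subtracted, a second quantile normalization, a filter at the 40th percentile of mean level, a gene's median probe set value, a block for replicate number, and each array left out.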

Additional observations from a re-analysis of the deposited data

Results flagged for a closer look

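Among 78 genes and list means described above, 15 had an NAC array whose gap to its nearest neighbour was a larger share of the range of the 4 NAC arrays than Dixon's 95% critical value. Chance flags about 1 in 20 groups, but that rate cannot be set against this count, since the marker genes were named for their difference on NAC replicate 3. None of the 8 PPARalpha and oxidation genes was among them. NAC replicate 3 was the high array for Pparg (share 0.940), Plin2 (0.874), Retn (0.854), Adipoq (0.879), Ucp1 (1), Atp2a1 (0.911), Scgb1a1 (0.934), Sftpc (0.975), the mean of the skeletal muscle markers (0.879) and the mean of the lung markers (0.975). NAC replicate 1 was the low array for Zbtb16 (0.836), Fkbp5 (0.855) and the mean of the glucocorticoid-induced genes (0.882). NAC replicate 2 was low for the peptide gene Adm (0.888), at 7.12 against 7.58 to 7.64 on the other NAC arrays. NAC replicate 4 was high for Cyp4a14 (1), at 5.02, where the other 3 shared 1 value. For Ucp1 and Cyp4a14 the share of 1 comes from such shared values.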

How the results depend on the processing

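Under all 14 alternatives 0 of the 8 genes passed the threshold in limma, and Cpt1a (-0.25 to -0.16) and Ehhadh (-0.12 to -0.073) kept their direction. Over all genes, 0 were called under each, but 1, Crip1, named after its values were seen, without NAC replicate 4 (range 0 to 1 over the arrays left out). Unadjusted, p was under 0.05 for 836 genes, for 1257 without NAC replicate 2 and for 554 of the 11363 genes left by the filter on dim genes. The median difference of the 8 genes was -0.014, between -0.037 and -0.0098 with single arrays left out, and 0.0056 after quantile normalization again, which also gave Acadm 0.0037, Acadl 0.0075 and Hadha 0.017. With single arrays left out, Ppara ranged from -0.063 to 0.064, Cpt2 from -0.020 to 0.033, Acadm from -0.032 to 0.0017, Acadl from -0.051 to 0.010 and Angptl4 from -0.16 to 0.39. The cause was not tested. Same-numbered arrays of the groups deviated together with r of 0.21, 0.29 and -0.067 over genes for replicates 1, 2 and 4. Arrays of different numbers had r from -0.27 to 0.21. Vehicle replicates 1 and 2 each correlated best with their own number, and vehicle replicate 4 with NAC replicate 3 (0.11). These values do not settle whether the numbers pair the mice, and the main fit took no pairing. With the replicate number as a block, over replicates 1, 2 and 4, 0 genes were called, 956 had an unadjusted p under 0.05 (637 for the same arrays without it), the median of the 8 genes was -0.013, and Ppara and Cpt2 were at -0.0047 and -0.020.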
